A study of Drosophila melanogaster with 18 samples.

Results

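The genes described here encode subunits of the proteasome of Drosophila melanogaster, followed in whole embryos through 9 groups that differ in age and in the E2F/Rb pathway. Members were probe sets whose annotated gene symbol begins with Prosalpha, Prosbeta, Rpn and a digit, or Rpt and a digit, a rule that uses symbols and not signals. The rule found 42 of the 13966 probe sets. Of these, 41 carry 1 gene each and represent 39 genes: 26 subunit genes and 13 paralogs whose symbols end in T or R with or without a digit. The remaining probe set is annotated to both Prosalpha1 and Prosalpha1R, and no value is given for it. RefSeq lists 48 genes that meet the rule, and 9 of them are not analysed here because no probe set carries them alone.

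The proteasome degrades proteins that have been tagged with ubiquitin. Its core particle, the 20S, is a barrel of stacked rings: alpha subunits form the outer rings and the gate, and beta subunits form the inner rings, some of which hold the proteolytic sites. The regulatory particle, the 19S, caps the barrel. Its base contains the Rpt ATPases, which unfold substrates, and the large scaffold subunits Rpn1 and Rpn2, and its lid contains Rpn11, the enzyme that removes ubiquitin from a substrate as it is taken in. In Drosophila, paralogs named T or R are known mainly from the male germline, where some replace their general counterparts.

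RNA of whole embryos was hybridised to 18 Affymetrix arrays, 2 for each of 9 groups. At 8 to 10 h of development, the Arm-Gal4 driver was crossed to yw (the control), to E2f1/Dp, to E2f2/Dp, to Rbf1, or to E2f1336-805, a dominant negative E2f1 fragment without the DNA binding domain. The remaining groups of that age were Dpa2/Dpa4 embryos, null for Dp, and E2f17172/E2f191 embryos, null for E2f1. At 14 to 16 h there were control embryos of the same driver cross and E2f17172/E2f191 embryos. Arm-Gal4 drives expression under the armadillo promoter, which is active widely in the embryo. All 5 driver groups carry it and the mutants are not described as carrying it. Mutants came from parents with Kr-GFP balancers (CyO for Dp, TM3 for E2f1) and were picked by an automated sorter at 8 to 10 h and by hand at 14 to 16 h. Driver, stock and sorting therefore cannot be told apart from genotype where a mutant is set against the control. RNA came from pools of about 200 to 700 embryos, so the files do not distinguish fewer cells of a type from less RNA per cell. The labels do not say whether the 2 samples of a group came from separate collections, and p-values then measure only the spread between these samples, which may be technical.

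The manipulated genes were checked first. E2f2 gave signals of 21453 and 21003 in E2f2/Dp embryos against 2376 and 1979 in the control of the same age, and Rbf gave 2213 and 1908 in Rbf1 embryos against 344 and 241. Dp gave 497 and 678 in Dp mutants against 2090 and 1649. E2f1 gave 12282 and 6952 in E2f1/Dp embryos against 2654 and 1325, but it also gave 13647 on Rbf1 replicate 2 and 3221 on Rbf1 replicate 1, which the labels do not account for. With the E2f1 fragment it gave 4139 and 4702. In E2f1 mutants of 8 to 10 h it gave 326 and 811, below both control arrays, a change of -1.87 ± 0.54 that missed the threshold (limma adjusted p = 0.0758). At 14 to 16 h it gave 594 and 448 in mutants against 592 and 593 in controls (-0.20 ± 0.54, adjusted p = 0.912), so E2f1 signal does not show the genotype of the older mutant arrays. The labels do not say whether these alleles remove the transcript measured. The arrays of 1 group correlated across genes, which are not independent replicates, at 0.894 in the control of 8 to 10 h and up to 0.951 in the control of 14 to 16 h. On control replicate 1 at 8 to 10 h the 26 subunit genes stood higher than on replicate 2, by a median of 0.27 on the log2 scale, and every comparison at that age leans on these arrays. Age was also visible in other genes: the summed signal of 3 early markers (Tom, Ocho and E(spl)m5-HLH) ran from 15537 to 31000 on the arrays of 8 to 10 h and from 517 to 720 on those of 14 to 16 h.

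All signals below are quantile normalised values of 1 probe set per gene, the brighter where there were 2. All 26 subunit genes passed the filter on dim probe sets, as did 3 paralogs, so 29 of the 39 genes were tested. Differences were tested on the log2 scale with limma over 8975 units (genes or unassigned probe sets), and a difference is called where the Benjamini-Hochberg adjusted p over all of them was under 0.05. The error given with a log2 change is its standard error (SE) in that fit, and n is 2 arrays per group throughout.

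Proteasome subunit transcripts were lower in older control embryos. Between 8 to 10 h and 14 to 16 h, 20 of the 26 subunit genes fell and 0 rose, whereas 25.6% of all units were called lower and 17.6% higher. The median change of the 26 was -1.00 on the log2 scale, which is 2.00-fold lower, and that of all 8975 units was -0.19. All 26 estimates were negative. The 12 core genes had a median of -1.09 with 11 called, and the 14 regulatory particle genes a median of -0.87 with 9 called. For 24 of the 26 the arrays of the 2 ages did not overlap, and 41.8% of all units were lower in this way.

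All 6 alpha ring genes fell. Prosalpha5 had signals of 1529 and 1841 in younger controls and of 532 and 514 in older ones. The older arrays lay close together, far below the younger, and the change was -1.68 ± 0.17 (SE; limma adjusted p = 3.64e-06). Prosalpha6 gave 3091 and 1994 against 555 and 845, a change of -1.86 ± 0.24 (adjusted p = 2.27e-05), again without overlap and with the younger arrays apart from each other. Prosalpha4 gave 1904 and 1776 against 739 and 662, a change of -1.40 ± 0.24 (adjusted p = 0.000257). The other 3, Prosalpha7, Prosalpha3 and Prosalpha2, changed by -1.36, -1.12 and -0.80. Without control replicate 1 of 8 to 10 h the change of Prosalpha7 was -0.90, still called (adjusted p = 0.0155). Prosalpha2, whose change was the smallest of the ring, lost its call when control replicate 2 of 14 to 16 h was left out (adjusted p = 0.0643).

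In the beta ring 5 of 6 genes fell. Prosbeta2, which carries the trypsin-like site, gave 4530 and 4173 in younger controls and 2076 and 2072 in older ones, a change of -1.07 ± 0.14 (adjusted p = 3.91e-05). Its replicates nearly coincided at both ages. Prosbeta5, which carries the chymotrypsin-like site, gave 3421 and 2730 against 1146 and 1463, a change of -1.24 ± 0.24 (adjusted p = 0.000673). Prosbeta6, Prosbeta4 and Prosbeta7, subunits without a proteolytic site, changed by -1.01, -0.92 and -0.67. Prosbeta3 gave 1825 and 2811 against 1735 and 1470. The ages did not overlap, but the younger arrays were far apart, and its change of -0.50 ± 0.20 missed the threshold (adjusted p = 0.0579). It passed with the deposited scaling (adjusted p = 0.0406), with median centring (0.0169) and without control replicate 1 of 8 to 10 h (0.00756).

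The base of the regulatory particle changed unevenly. Among its ATPases, Rpt2 gave 2584 and 1500 in younger controls against 630 and 985 in older ones, a change of -1.32 ± 0.25 (adjusted p = 0.000603). Rpt3 and Rpt5 also fell, by 0.98 and 0.73 on the log2 scale. Rpt4 gave 1325 and 1643 against 1171 and 1232, and its change of -0.30 ± 0.17 did not pass (adjusted p = 0.179). The scaffold subunit Rpn2 had the most negative estimate of all 26, -2.61 ± 0.50 (adjusted p = 0.000706), with signals of 883 and 625 in younger and 247 and 60 in older controls. The older arrays of Rpn2 differed widely from each other, and the lower was near the floor of 47.5 that was set for dim values. Without that array, control replicate 2 of 14 to 16 h, the change of Rpn2 was -1.59 (adjusted p = 0.0108) and Prosalpha6, Prosalpha5 and Rpt2 had more negative estimates. Rpn1, the other scaffold, gave 2538 and 1870 against 1210 and 988 and fell by 0.99. Rpn13, a ubiquitin receptor, gave 2330 and 1413 against 1217 and 1449. These arrays overlapped and its change of -0.45 ± 0.20 did not pass (adjusted p = 0.084), although it passed without control replicate 2 of 8 to 10 h (0.00267).

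In the lid 4 of 7 genes fell. Rpn7 gave 3071 and 2976 in younger controls against 1058 and 1171 in older ones, a change of -1.44 ± 0.20 (adjusted p = 5.59e-05). Rpn3 and Rpn6 changed by -1.23 and -1.16. Rpn8, the partner of Rpn11, gave 764 and 525 against 356 and 398. Its change of -0.75 ± 0.27 passed (adjusted p = 0.0336) but not in 4 of the 13 alternative settings, among them the one without control replicate 1 of 8 to 10 h (0.252). Rpn11 gave 1307 and 1075 against 883 and 609, a change of -0.69 ± 0.29 (adjusted p = 0.0623). It passed with the deposited scaling (0.0449), with median centring (0.0363) and without control replicate 1 of 14 to 16 h (0.0447). Rpn12 gave 1836 and 1834 against 1141 and 1684, with a change of -0.40 ± 0.24 (adjusted p = 0.19). Rpn5 gave 1518 and 3184 against 2186 and 1963. The younger Rpn5 arrays lay on either side of the older, and its change of -0.09 ± 0.25 did not pass (adjusted p = 0.811), whereas without control replicate 1 of 8 to 10 h it was -0.62 (adjusted p = 0.0231). Of the 20 calls, 18 passed in every alternative setting.

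Markers of differentiating and dividing cells moved over the same interval. All 5 tested muscle markers rose, and their summed signal ran from 12755 to 17344 on younger and from 69166 to 71960 on older control arrays. All 7 tested markers of neuroblasts and proliferating precursors fell. Their sum ran from 24735 to 29320 on younger and from 10076 to 10727 on older control arrays. On the older control arrays most of that sum came from CycB, a mitotic cyclin. Of the ribosomal protein genes, another set of housekeeping complexes, 5 of the 28 tested cytoplasmic ones rose and 3 fell. Of the 64 mitochondrial ones 0 rose and 16 fell, with a median of -0.25. Beside these, 17.6% of all units were called higher and 25.6% lower, with a median of -0.19. In E2f1 mutants 0 of the 28 cytoplasmic ones rose with age and 3 fell, beside 13.9% and 21.7% of all units. At 8 to 10 h, 4 of the 28 were called higher than the control in Dp mutants and 4 in E2f1 mutants, beside 2.08% and 1.2% of all units. The part of changes in cell makeup in the subunit transcripts was not tested.

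**Figure D1:**
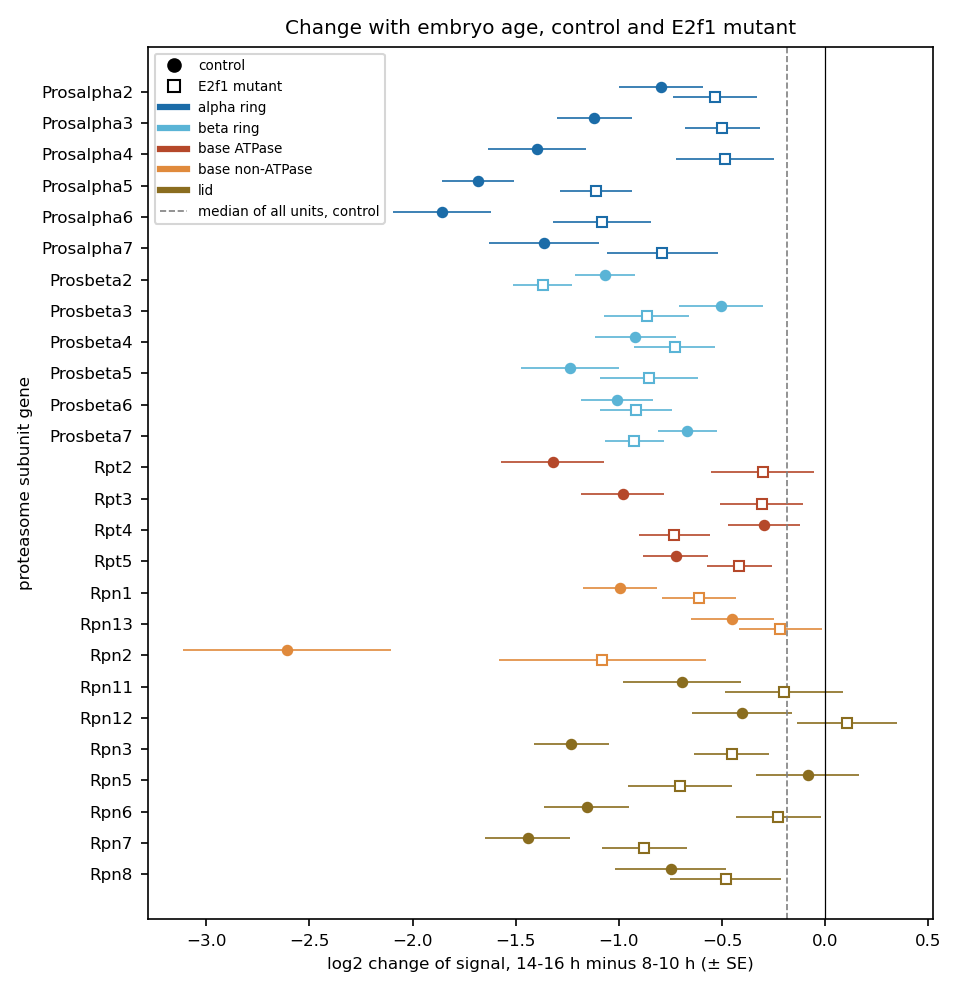
Log2 change of signal between 8 to 10 h and 14 to 16 h for each of the 26 subunit genes, in control (filled circles) and E2f1 mutant embryos (open squares), with bars for the SE of the limma fit and 2 arrays per group and age. Colours give the subcomplex and the dashed line the median of all units in the control. Control estimates are all below 0, while the mutant estimates reach 0.11 for Rpn12.

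Subunit transcripts were also lower in older E2f1 mutants. There 15 of the 26 fell and 0 rose, against 21.7% of all units called lower, and the median change of the 26 was -0.66 beside -0.15 for all units. Of the core genes 10 of 12 fell, with a median of -0.86, whereas 5 of the 14 regulatory particle genes fell, with a median of -0.44. Prosbeta2 gave 5659 and 4998 in younger mutants against 1963 and 2157 in older ones, a change of -1.37 ± 0.14 (adjusted p = 6.43e-06). Prosalpha5 gave 1431 and 1279 against 708 and 553 and changed by -1.11 ± 0.17 (adjusted p = 0.000169). Prosbeta7 gave 3492 and 3325 against 1708 and 1885 and changed by -0.92 ± 0.14 (adjusted p = 0.000164). In none of these 3 genes did the ages overlap.

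The remaining core genes that fell in the mutants were Prosalpha6, Prosalpha7, Prosalpha3, Prosbeta6, Prosbeta3, Prosbeta5 and Prosbeta4, with changes of -1.08, -0.79, -0.50, -0.92, -0.87, -0.85 and -0.73. In the regulatory particle, Rpn7 changed by -0.88, Rpt4 by -0.73, Rpn5 by -0.70, Rpn1 by -0.61 and Rpt5 by -0.42. Prosbeta3, Rpt4 and Rpn5 were called in the mutants and not in the controls. For Rpt4 the mutant signals were 1735 and 1902 at the younger age and 1144 and 1045 at the older, and for Rpn5 they were 3408 and 3582 against 2153 and 2135. The mutant arrays of each age agree closely for both genes, unlike the younger control arrays of Rpn5. Only 7 of the 15 calls passed in every alternative setting: Prosbeta2, Prosbeta3, Prosbeta6, Prosbeta7, Prosalpha5, Prosalpha6 and Rpt4. With median centring 9 genes were called, and leaving out each of the 4 arrays in turn gave 8 to 12. The count was 8 without E2f1 mutant replicate 1 of 8 to 10 h, and 8 without E2f1 mutant replicate 2 of 14 to 16 h.

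The difference between the age changes of mutants and controls was tested as an interaction and was called for 0 of the 26 genes by limma, against 2.75% of all units. At an unadjusted p under 0.05 there were 9, all of them less negative in the mutants, beside 17.4% of all units in either direction. Estimates were positive for 21 of 26, with a median of 0.44 beside 0.04 for all units. The lean was not particular to the subunit genes, since 61 of 64 mitochondrial ribosomal protein genes were positive, with a median of 0.62. Of 28 cytoplasmic ribosomal protein genes 11 were positive, with a median of -0.13. The smallest adjusted p was that of Rpn6, a clamp-like lid subunit, whose signals in the mutants were 1335 and 1365 at the younger and 1094 and 1215 at the older age, against 2638 and 1602, then 924 and 921, in the controls. Its interaction was 0.93 ± 0.29 (adjusted p = 0.0991). Without control replicate 2 of 8 to 10 h, 4 genes were called (Rpn3, Rpn6 and Rpt2 positive, Rpn5 negative), and without control replicate 1 of 14 to 16 h 1 was (Rpn2). That call of Rpn2 rested on the other older control array, at 60 and near the floor of 47.5. The alpha ring estimates were positive for 6 of 6 genes and those of the beta ring for 3 of 6.

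Among the groups of 8 to 10 h, Rbf1 embryos had the highest core medians. The highest of the 18 arrays was an Rbf1 array for 8 of the 12 core genes, including all 6 beta ring genes. This held for 2 of the 14 regulatory particle genes and was not counted over all units. Both Rbf1 arrays lay above both control arrays for 6 of the 12 core genes, 1 of the 14 regulatory particle genes and 22.3% of all units. Against the control, 11 of 12 core estimates were positive with a median of 0.31, and 10 of 14 regulatory particle estimates were negative with a median of -0.19. Only Prosalpha5 was called, with 0.713% of all units called higher and 1.44% called in either direction. Its signals were 3174 and 3066 in Rbf1 embryos against 1529 and 1841 in the control, without overlap, and the change was 0.89 ± 0.17 (adjusted p = 0.0176). At an unadjusted p under 0.05, 9 of the 26 differed, 7 higher and 2 lower, beside 13.2% of all units. The share of units called lower was 0.724%, and 0 members were.

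The beta ring came next in Rbf1 embryos. Prosbeta2 gave 6205 and 6929 against 4530 and 4173, a change of 0.59 ± 0.14 (adjusted p = 0.0567). Prosbeta7 gave 5722 and 6350 against 4201 and 3876, a change of 0.58 ± 0.14 (adjusted p = 0.062). Groups did not overlap in either gene, and neither passed. Prosbeta3 had the next smallest p, with a change of 0.54 ± 0.20 (adjusted p = 0.256). Under all 4 left-out arrays the core median was positive, from 0.24 to 0.39, whereas the regulatory particle median went from -0.01 without control replicate 1 to -0.38 without control replicate 2. Prosalpha5 lost its call without control replicate 1, without Rbf1 replicate 1 and without Rbf1 replicate 2 (adjusted p up to 0.126), without the trend in limma's spread, and in a fit of these groups alone (0.345). Signals of Prosbeta2 and Prosbeta7 passed where dim probe sets were not filtered (0.0263 and 0.0226).

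Other transcripts also differed in Rbf1 embryos: 12 of 28 cytoplasmic ribosomal protein genes were called lower. Of the 5 muscle markers 1 was called lower, with summed signals of 8525 and 6901 against 12755 and 17344. The part of these and of the E2f1 signal on Rbf1 replicate 2 in the core values was not tested. The median of the core minus that of the regulatory particle was 0.52 on replicate 1 and 0.70 on replicate 2. On the other 16 arrays this difference ran from -0.41 to 0.30.

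**Figure D2:**
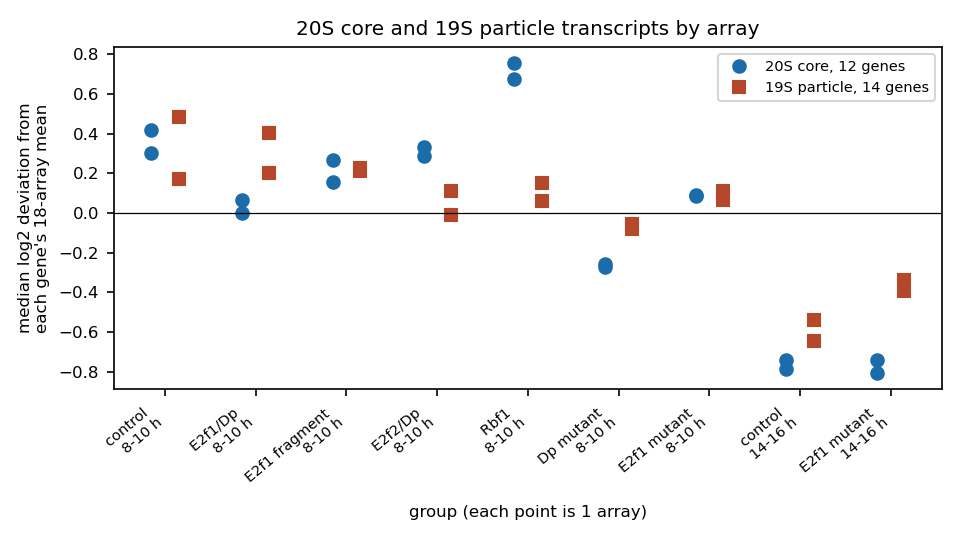
Median over the 12 core genes (circles) and the 14 regulatory particle genes (squares) of the log2 deviation from each gene's mean over the 18 arrays, with 1 point per array and 2 arrays per group. On the Rbf1 arrays the core lies at 0.67 and 0.76 and the regulatory particle at 0.15 and 0.06, and all arrays of 14 to 16 h lie below 0 for both.

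Dp mutants had the lowest core medians of the 8 to 10 h groups. Against the control, 22 of 26 estimates were negative with a median of -0.51, and all 12 core genes were among them. Other sets leaned the same way: 7 of 8 subunits of the COP9 signalosome, a complex built much like the lid, were negative (median -0.52). So were 55 of 64 mitochondrial ribosomal protein genes (median -0.33), but only 10 of 28 cytoplasmic ones (median 0.15). The median of all units was -0.04. Of the 26 genes, 4 fell and 1 rose, where 1.92% of all units were called lower, 2.08% higher and 4% in either direction. The genes that fell were Prosalpha6, Prosbeta5, Rpn3 and Rpt2, and the gene that rose was Rpt5. At an unadjusted p under 0.05, 14 were lower and 1 higher, beside 19.7% of all units in either direction. Arrays of 18 of the 26 lay entirely below those of the control, as did 26.6% of all units.

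Prosalpha6 gave 1035 and 1240 in Dp mutants against 3091 and 1994 in the control, a change of -1.13 ± 0.24 (adjusted p = 0.0167). Prosbeta5 gave 1290 and 1559 against 3421 and 2730, a change of -1.11 ± 0.24 (adjusted p = 0.0187). Rpn3 gave 2311 and 2286 against 4945 and 3385, a change of -0.83 ± 0.18 (adjusted p = 0.0218). No arrays overlapped in these 3 genes, and for Rpn3 the mutant arrays lay much closer together than the control arrays. Rpt2 gave 1019 and 1043 against 2584 and 1500, a change of -0.93 ± 0.25 (adjusted p = 0.0493). Rpt5 ran the other way, with 2859 and 2979 against 1643 and 1793, a change of 0.77 ± 0.16 (adjusted p = 0.0149). Its Dp mutant arrays were the highest of all 18.

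None of these 5 calls passed in every alternative setting. Without the trend in limma's spread, in a fit of these groups alone, without control replicate 1 or without Dp mutant replicate 1, 0 members were called, and without Dp mutant replicate 2 there were 2. Without control replicate 2 there were 10. All 12 core estimates were negative whichever array was left out. For 11 of them both Dp mutant arrays lay below both control arrays, so leaving out 1 array could not change the sign. Measures of embryo age were mixed for the Dp mutant arrays. An index of age was built from other genes, 0 at the mean of the younger and 1 at the mean of the older controls. It was 0.34 and 0.16 in Dp mutants, -0.05 and 0.05 in the control and 0.15 and 0.12 in E2f1/Dp embryos. Its genes and scale came from the control arrays, so the control mean of 0 was fixed in advance. Early markers of the Dp mutants summed to 15537 and 15970 against 31000 and 21599 in the control. The 48 tested late markers (TwdlG, Cht6 and Cpr genes) summed to 41110.5 and 21680.5 against 21906.9 and 24454. By these late markers, Dp mutant replicate 2 lay below both control arrays. The part of developmental age in the lower subunit signals was not tested.

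**Figure D3:**
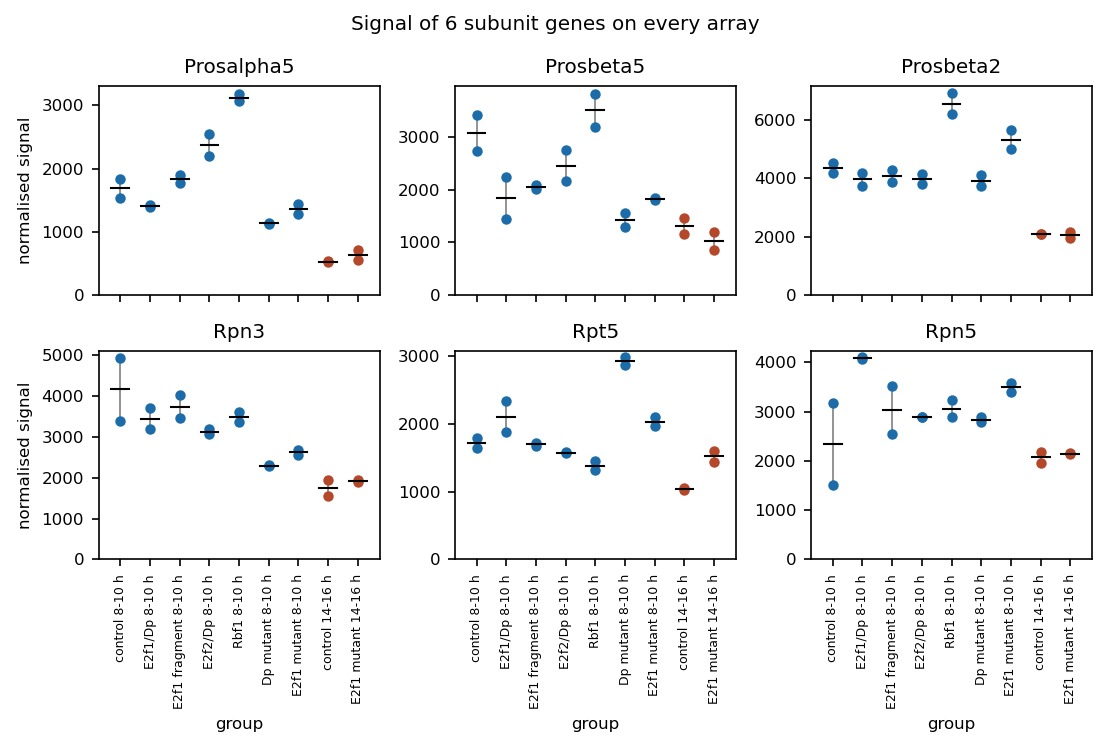
Quantile normalised signal of 6 subunit genes on every array, with circles for arrays (blue at 8 to 10 h, red at 14 to 16 h), a grey line joining the 2 arrays of a group and a black bar at their mean. Both Rbf1 arrays are the highest for Prosalpha5 and Prosbeta2, Dp mutant arrays are the highest for Rpt5, and the 2 control arrays of 8 to 10 h are 1518 and 3184 for Rpn5.

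E2f1 mutants of 8 to 10 h had lower estimates than the control for 20 of 26 genes, with a median of -0.26, but limma called 0, beside 2.55% of all units. At an unadjusted p under 0.05, 8 were lower and 1 higher, beside 18.2% of all units. Rpn3 gave 2689 and 2554 against 4945 and 3385, a change of -0.64 ± 0.18 (adjusted p = 0.0746). Prosbeta5 gave 1808 and 1838 against 3421 and 2730, a change of -0.75 ± 0.24 (adjusted p = 0.101). Neither overlapped with the control, and in both the mutant replicates nearly coincided. Without control replicate 2, 6 genes were called (Rpn3, Rpn6, Rpt2, Prosalpha6 and Rpn13 lower, Rpn5 higher), and without control replicate 1 none was. The age index was 0.21 and 0.24 on these arrays.

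At 14 to 16 h the same comparison gave 19 of 26 positive estimates, with a median of 0.16 beside 0.06 for all units. Limma called 0 of 26 against 5.6% of all units, and 3 differed at an unadjusted p under 0.05, beside 18.3%. Rpt5 gave 1442 and 1604 in mutants against 1049 and 1027 in controls, a change of 0.55 ± 0.16 (adjusted p = 0.0527), and it passed with the deposited scaling (0.0364), median centring (0.0286), no filter (0.0132) and a filter on 50% of probe sets (0.0425). Prosbeta7 gave 1708 and 1885 against 2622 and 2457, a change of -0.50 ± 0.14 (adjusted p = 0.0558), and passed with both filter settings (0.0158 and 0.0443). Neither gene overlapped between groups. Rpn2 gave 187 and 456 against 247 and 60, which overlapped. Its call without control replicate 1 rested on the other control array, at 60 and near the floor of 47.5.

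In embryos expressing E2F proteins no subunit gene was called, and few units of any kind were. In E2f1/Dp embryos limma called 0 of 26 against 0.0891% of all units, and 6 passed an unadjusted p of 0.05, 4 lower and 2 higher, beside 8.55% of all units. All 12 core estimates were negative, with a median of -0.30, and 9 of 14 regulatory particle estimates were, with a median of -0.08. Without control replicate 1 these medians were -0.30 and 0.19. The smallest p belonged to Rpn5, which gave 4073 and 4109 against 1518 and 3184 (0.90 ± 0.25, adjusted p = 0.302). Prosalpha4 gave 990 and 1159 against 1904 and 1776, a change of -0.78 ± 0.24 (adjusted p = 0.343), and Prosbeta5 gave 2231 and 1435 against 3421 and 2730 (-0.77 ± 0.24, adjusted p = 0.354). In all 3 the groups did not overlap, though the control arrays of Rpn5 were far apart.

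In E2f2/Dp embryos limma called 0 of 26 against 0.078% of all units, with 2 at an unadjusted p under 0.05 beside 8.8% of all units. Prosalpha5 came nearest, with 2541 and 2205 against 1529 and 1841 (0.50 ± 0.17, adjusted p = 0.407). In embryos with the E2f1 fragment it called 0 of 26 against 0.791%, with 1 at an unadjusted p under 0.05 beside 10.7%. That was Prosbeta5, with 2086 and 2004 against 3421 and 2730 (-0.58 ± 0.24, adjusted p = 0.367). In the fragment embryos 4 of 5 muscle markers were called lower, with summed signals of 1331 and 3384 against 12755 and 17344 in the control, while the median of the 26 subunit estimates was -0.07. The 6 comparisons with the control of 8 to 10 h share its 2 arrays, and without control replicate 2 Rpn5 was called higher in all 6 (log2 changes of 0.90 to 1.43).

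**Figure D4:**
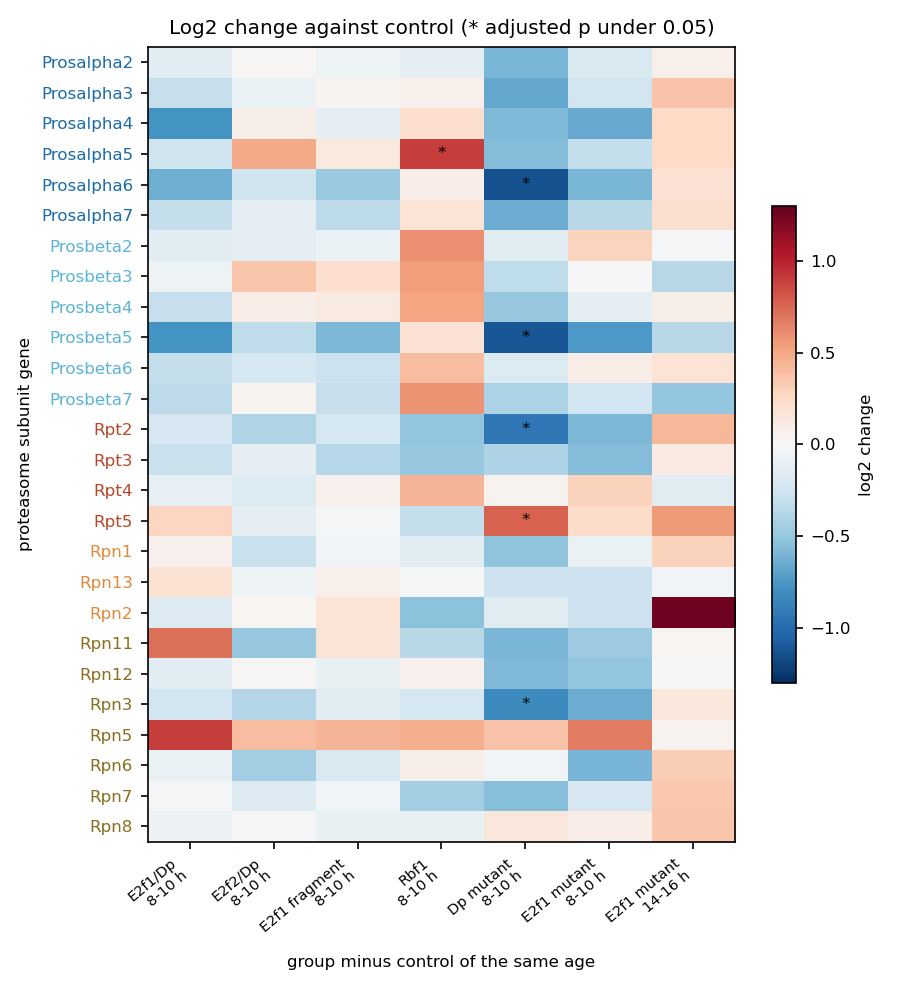
Log2 change of each subunit gene in 6 groups of 8 to 10 h and in E2f1 mutants of 14 to 16 h against the control of the same age, with red for higher, blue for lower and a star for an adjusted p under 0.05. Label colours are those of the subcomplexes: blue tones for alpha and beta rings, red and orange for the base and brown for the lid. The scale ends at 1.3 on either side, stars mark Prosalpha5 in Rbf1 and 5 genes in Dp mutants, and all columns of 8 to 10 h share the same control arrays.

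The order of the 9 groups, read over all 26 genes, ran from Rbf1 to the older controls. The mean of the 2 array medians, as log2 deviation from each gene's own mean, was 0.37 ± 0.04 (SD, n = 2) in Rbf1, 0.32 ± 0.18 in the control of 8 to 10 h, 0.22 ± 0.12 in E2f2/Dp, 0.20 ± 0.04 in the E2f1 fragment group and 0.17 ± 0.11 in E2f1/Dp embryos. Neighbours among these 5 groups differed by less than the spread of the more variable group. E2f1 mutants followed at 0.09 ± 0.004 and Dp mutants at -0.18 ± 0.007, both tighter than any other group. At 14 to 16 h, E2f1 mutants stood at -0.50 ± 0.06 and controls at -0.70 ± 0.02. The lowest of the 18 arrays was one of 14 to 16 h for 24 of the 26 genes, the exceptions being Rpn5 and Rpn12. The highest was one of 8 to 10 h for all 26. Neither count was made over all units, so both describe the members only.

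Over all 9 groups, the median Pearson correlation of group means over the 325 pairs of subunit genes was 0.74, with 323 pairs positive. Within the 7 groups of 8 to 10 h it was 0.26, and 219 pairs were positive, a description over 7 points that share arrays. Other genes were not measured in this way. The values that follow are those of the 7 groups. Rpn8, Rpt5 and Rpn5 ran against most other members, with median correlations of -0.60, -0.56 and -0.20. Rpn12, Prosalpha3 and Prosalpha2 had the highest, at 0.66, 0.62 and 0.60. Rpt5, which rose in Dp mutants, lay low in Rbf1 embryos, at 1318 and 1448.

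Genes for proteins that work with the proteasome were also lower in older controls. Over all units, 25.6% were called lower and 17.6% higher in this comparison, with a median of -0.19. Of 10 tested regulators and assembly factors, 6 fell with age and 0 rose, with a median of -1.07. REG, the activator cap of the nuclear proteasome, changed by -1.43 ± 0.16 (adjusted p = 8.72e-06). Usp14, a deubiquitinase bound to the regulatory particle, changed by -2.02 ± 0.26 (adjusted p = 2.35e-05), rngo, a ubiquitin receptor, by -1.65, and Sem1, a small lid subunit outside the naming rule, by -1.76. Of 13 factors that supply ubiquitin or extract tagged proteins, 7 fell and 0 rose, with a median of -0.74: TER94, the fly p97 segregase, changed by -1.69, the conjugating enzyme Ubc2 by -1.39 and the polyubiquitin genes Ubi-p63E and Ubi-p5E by -1.31 and -0.74. Of 8 tested subunits of the COP9 signalosome, which is built much like the lid, 5 fell and 0 rose, with a median of -0.85, CSN8 by 1.68, CSN7 by 1.46, CSN4 by 1.07 and CSN1b by 0.70.

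In older E2f1 mutants 2 deubiquitinases of the regulatory particle went opposite ways, a pair chosen after their values were seen. Usp14 gave 768 and 527 in mutants against 272 and 287 in controls of 14 to 16 h and was higher by 1.19 ± 0.26 (adjusted p = 0.0125). Uch-L5, which docks on Rpn13, gave 182 and 287 against 547 and 484 and was lower by a log2 change of -1.17 ± 0.26 (adjusted p = 0.0141). Groups did not overlap for either. No other gene of the 10 regulators was called there, while Rpn13 itself gave 1348 and 1251 against 1217 and 1449 (-0.03 ± 0.20, adjusted p = 0.974). In Dp mutants CSN8 gave 684 and 586 against 1868 and 1132 in the control, a change of -1.20 ± 0.26 (adjusted p = 0.0185), and it was the called gene of the 8 signalosome subunits there.

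The paralogs were dim. Of the 13, 10 failed the filter and were not tested. Prosbeta2R1 was at the floor of 47.5 on all 18 arrays, and Prosbeta2R2 reached the highest value among the untested, 278 on an E2f1 mutant array of 8 to 10 h. Of the spermatocyte markers, 3 of 8 were bright enough to be tested, and the defining regulators aly, comr, can and sa were not. No tested paralog was called in any comparison. Prosbeta5R1 came nearest, with 230 and 160 in younger and 86 and 48 in older E2f1 mutants, a change of -1.58 ± 0.61 (limma adjusted p = 0.057), the lowest value being at the floor. It passed without the trend in limma's spread (0.044). Rpt4R lay between 89.8 and 286 on the 18 arrays and Rpn13R between the floor and 242, and the second probe sets of Prosalpha7 and Prosbeta6 were dim as well, with highest values of 109 and 238.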

How the data were processed

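The authors deposited linear probe-set signal intensity for 18 Affymetrix arrays. The mean after trimming 2% of probe sets at each end lay between 495.5 and 497.8 on every array, so the deposited values had been scaled to a common mean. The software that summarised the probes is not given in the sources used here, and no detection calls were used. Deposited array medians ranged from 209.15 to 247.75. For arrays, their number limits the precision: n is 2 per group.

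Arrays were quantile normalised, values under the 20th percentile (47.5) were set to it, the dimmest 30% of probe sets by mean were dropped and the brightest probe set of each gene was kept (8975 units). Symbols came from GEO's platform annotation updated through RefSeq. In R 4.3.3 with limma 3.58.1, 9 group means were fitted to all 18 arrays (lmFit, eBayes with trend). Tests were two-sided, adjusted by Benjamini-Hochberg over all units. The steps were tested on simulated data. The age index used the 300 genes that rose and the 300 that fell most between control ages, without subunit and listed genes. Members and gene lists were chosen with earlier results of these data known, the lists from general knowledge.

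Members that passed were named, otherwise up to 4 with the smallest p; of each list, the 4 with the smallest p in control development. Over 36 pairs of groups, deviations of same-numbered arrays correlated at a median of 0.008 (from -0.16 to 0.15). The main fit did not pair arrays by replicate number. With so few arrays per group, these correlations cannot exclude a day or batch shared by some groups. Alternatives were the deposited scaling, median centring, no floor, no filter or a 50% filter, every probe set, no trend, a replicate block, only the groups compared, and each array left out. Figures were drawn with matplotlib 3.10.9.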

Additional observations from a re-analysis of the deposited data

Results flagged for a closer look

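Of 51 tested genes on the lists of proteasome partners and cell type markers, 5 had an E2f1 mutant effect that differed between 14 to 16 h and 8 to 10 h by limma's interaction test, beside 2.75% of all units. In the ribosomal sets the same test called 4 of 28 cytoplasmic genes, all lower, and 2 of 64 mitochondrial genes, both higher. Usp14 was higher in mutants at the later age (768 and 527 against 272 and 287) and not at the earlier (948 and 867 against 1402 and 923), and the effects differed by 1.51 ± 0.37 on the log2 scale (adjusted p = 0.038). For rngo the effects differed by 1.26 ± 0.30 (adjusted p = 0.0341), with 481 and 462 against 269 and 320 at the later age and 613 and 619 against 1133 and 748 at the earlier. For insc, a neuroblast marker, the difference was 1.95 ± 0.48 (adjusted p = 0.0419). For CycB, a mitotic cyclin, it was -2.00 ± 0.30 (adjusted p = 0.00219), with 2004 and 1245 in older mutants against 8557 and 7189 in older controls. For twe, on the spermatocyte list, it was -3.11 ± 0.62 (adjusted p = 0.0135), but both older mutant arrays of twe were at the floor, so that value depends on the floor. No subunit gene had such a difference, and no explanation was tested.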

How the results depend on the processing

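Counts of subunit genes called kept within 1.5 times the reported count in most settings. With median centring the E2f1 mutant age count was 9. For Rbf1 the count was 3 with no filter, 2 with the 50% filter, and 0 without the trend or with only the groups compared. For Dp mutants it was 0 without the trend and 0 with only the groups compared. For E2f1 mutants of 14 to 16 h it was 1 with the deposited scaling, 1 with median centring, and 2 with no filter or the 50% filter. With the replicate block 20 genes fell in controls and 14 in E2f1 mutants, with 1 called for Rbf1 and 5 for Dp mutants, so the block changed no count by over 1.5 times. Leaving out each array gave 18 to 21 calls for control age and 8 to 12 for E2f1 mutant age. It gave 0 to 1 for E2f1/Dp, 0 to 2 for E2f2/Dp, 0 to 1 for the E2f1 fragment, 0 to 3 for Rbf1 and 0 to 10 for Dp mutants. It gave 0 to 6 for E2f1 mutants of 8 to 10 h, 0 to 1 for those of 14 to 16 h, and 0 to 4 for the interaction. The highest counts at 8 to 10 h came without control replicate 2, the cause of which was not tested. Where a group keeps 1 array, that array is assumed to vary like the other groups. Near the floor, as for paralogs, signal limits what a change can show.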
